A study of Homo sapiens with 4 samples.

Results

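The nuclear genes for mitochondrial ribosomal proteins were followed in U2OS cells, an established human osteosarcoma line, by every gene symbol made of MRPL or MRPS, a number and at most 1 further letter. The rule found 78 genes of the 39519 gene symbols measured, 49 named MRPL for the large ribosomal subunit and 29 named MRPS for the small subunit. The rule used names only and no measured value. The cells of the sh-PURB group carried a doxycycline-inducible short hairpin RNA against PURB, whose product binds single-stranded DNA and RNA, and received doxycycline at 5.0 µg/ml for 72 h. The sh-NC control cells received DMSO over the same 72 h. There were 2 libraries in each group, made from total RNA after removal of ribosomal RNA.

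Doxycycline was given to the sh-PURB cells alone, so the effects of the hairpin and of the drug cannot be told apart. Doxycycline belongs to the tetracyclines, antibiotics known to inhibit translation on mitochondrial ribosomes as well as bacterial ones. The labels do not say whether the libraries came from separate cultures, so the p-values speak of the spread among these 4 libraries, and that spread may be technical. The labels also do not say how many hairpins or clones were used, or whether the sh-NC cells carry an inducible hairpin.

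Mitochondrial ribosomes translate the few proteins still encoded by mitochondrial DNA, all of them subunits of the respiratory chain and the ATP synthase. Their ribosomal RNAs come from mitochondrial DNA, while all their proteins are encoded in the nucleus, made in the cytosol and imported. Many of the proteins have a homolog in bacterial ribosomes, and others exist only in mitochondria. The genes lie scattered over the genome, and many start close to a neighbouring gene on the opposite strand.

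Values were TPM, a share of all transcripts scaled by transcript length, which holds no read counts, and the depth of each library is unknown. A library had 13298 to 14207 genes at 1 TPM or more. The structured noncoding RNAs RPPH1, RMRP, RN7SK, RN7SL2 and RN7SL1 together took 65.2% and 63.2% of the sh-PURB libraries and 62.2% and 59.4% of the sh-NC libraries. The bone matrix gene SPARC was at 220 to 262 TPM, the mesenchymal filament gene VIM at 298 to 342 TPM and the epithelial keratin KRT8 at 86.2 to 115 TPM. Of the other mesenchymal and bone markers, COL1A1 was at 9.53 to 39.7 TPM and RUNX2 at 1.92 to 3.92 TPM, while COL1A2 and ALPL were near 0. Of the markers of other cells, the leukocyte gene PTPRC was at 0.651 to 1.63 TPM, the epithelial gene EPCAM at 1.79 to 2.44 TPM, and CDH1, PECAM1, CDH5, ALB and MYOD1 were each below 1 TPM. PURB mRNA measured 2.46 and 2.69 TPM in sh-PURB cells, against 5.29 and 6.55 TPM in sh-NC cells. Its level in the sh-PURB libraries was 0.435 times that in the sh-NC libraries, with no overlap. The difference missed the 0.05 threshold in limma (p = 0.102 after adjustment over all tested genes), and the exact two-sided permutation test gave 0.333, the smallest p that 2 libraries against 2 allow.

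Most mitochondrial ribosomal protein mRNAs stood somewhat higher in sh-PURB cells, and 1, MRPS6, stood at less than 0.5 times its control level. All 78 members passed the filter on low values, which asked for at least 1 TPM in at least 2 libraries. Differences were taken as sh-PURB minus sh-NC on the log2(TPM + 1) scale, which understates the change of low genes. Of the 78 members, 69 (88.5%) had a difference above 0 and 9 below 0, where 41.6% of all tested genes were above 0. The median difference was 0.20 over the 49 MRPL genes and 0.23 over the 29 MRPS genes, against -0.06 over all 14269 tested genes. In bulk libraries, fewer cells of a type and less RNA per cell cannot be told apart.

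No single member passed the threshold, an adjusted p under 0.05 in limma with Benjamini-Hochberg adjustment over all 14269 tested genes. That threshold was passed by 41 genes in all, 0.287% of those tested, with 12 higher and 29 lower. Before adjustment, at a p under 0.05, 14 members were higher, where 5.77% of all tested genes were, and 1 member was lower, where 9.53% of all tested genes were. Of the 14, 8 were MRPL genes and 6 were MRPS genes.

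Without reference to a threshold, 44 members had both sh-PURB libraries above both sh-NC libraries, 56.4% of the 78, while 18.6% of all tested genes had this order. The 44 were 28 of the 49 MRPL genes and 16 of the 29 MRPS genes. MRPS6 alone had both sh-PURB libraries below both sh-NC libraries, an order found in 29.3% of all tested genes. In the other 33 members the groups overlapped.

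**Figure D1:**
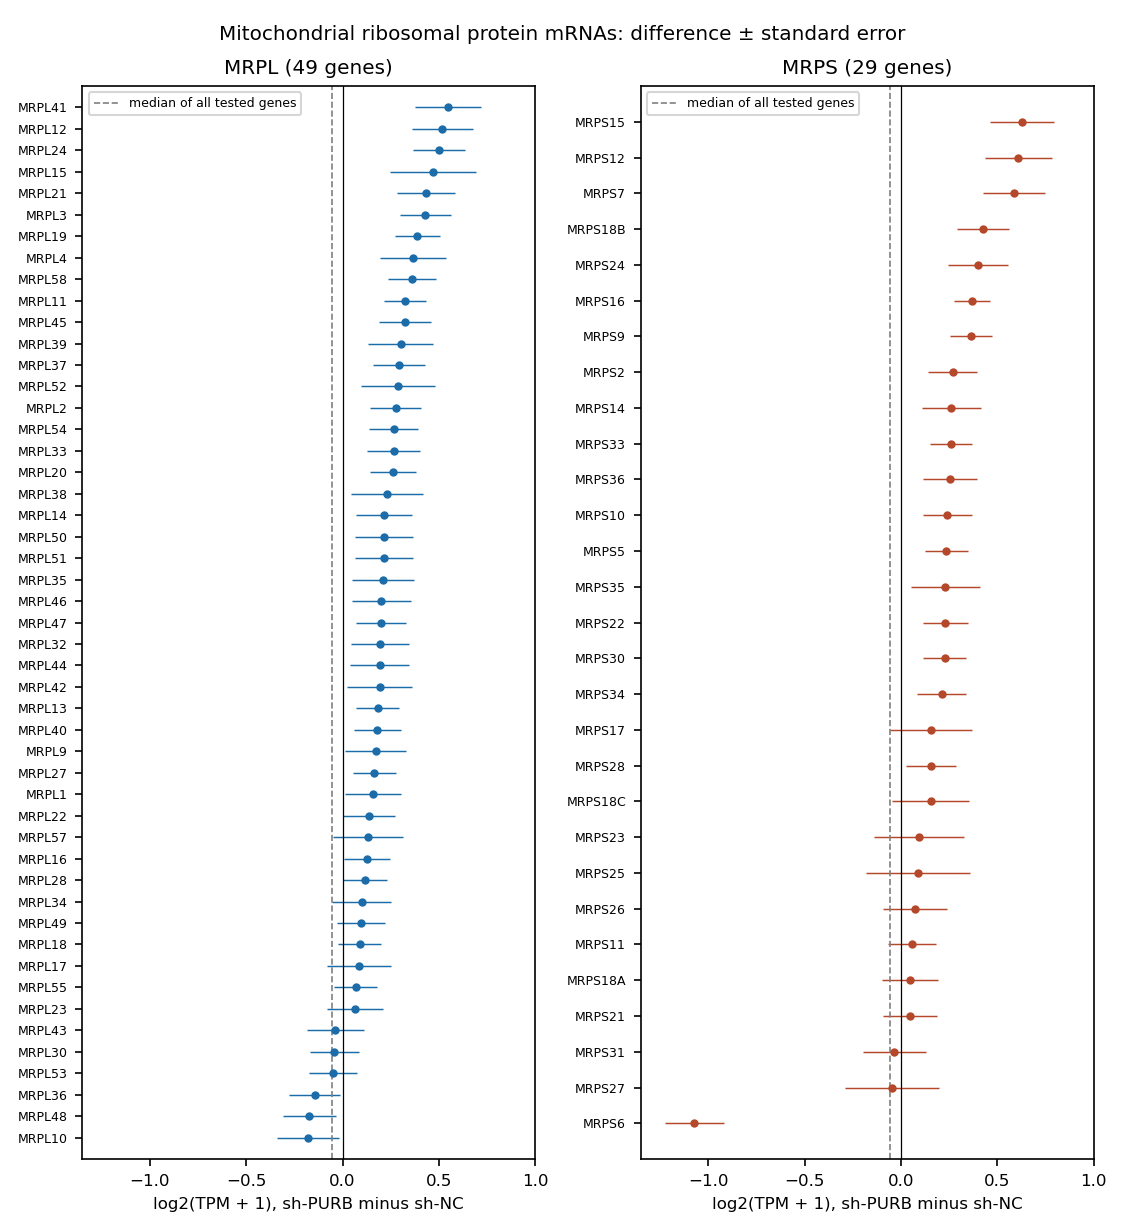
Difference of each member on the log2(TPM + 1) scale, sh-PURB minus sh-NC, with its limma standard error (2 libraries a group), for the 49 MRPL genes on the left and the 29 MRPS genes on the right. Points right of the solid line at 0 are higher in sh-PURB, the dashed line is the median of all tested genes at -0.06, and MRPS6 stands far to the left of all others at -1.07.

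The sh-PURB libraries differed from each other by nearly as much as the groups did, and the sh-NC libraries by less. After subtracting each gene's own mean, the median over the 78 members was 0.20 in sh-PURB 1 and 0.02 in sh-PURB 2, against -0.05 in sh-NC 1 and -0.15 in sh-NC 2, on the log2(TPM + 1) scale. All of these medians are ordered by group, but the gap between the sh-PURB libraries was larger than the gap between sh-PURB 2 and sh-NC 1. Within the sh-PURB group, library 1 was the higher in 75 of 78 members, and within the sh-NC group library 1 was the higher in 62 of 78. Over all tested genes the same centred medians were -0.08 and 0.01 in the sh-PURB libraries, against -0.01 and 0.07 in the sh-NC libraries, so sh-PURB 1 had the highest median for the members and the lowest for all genes. Without sh-PURB 1 the MRPL median was 0.09 and the MRPS median 0.16. Without sh-PURB 2, the number of members with the sh-PURB library above both sh-NC libraries was 70, where 28.6% of all tested genes then had that order. Without sh-PURB 1 the matching number of members was lower and the share of all tested genes higher, as given in the closing section.

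**Figure D2:**
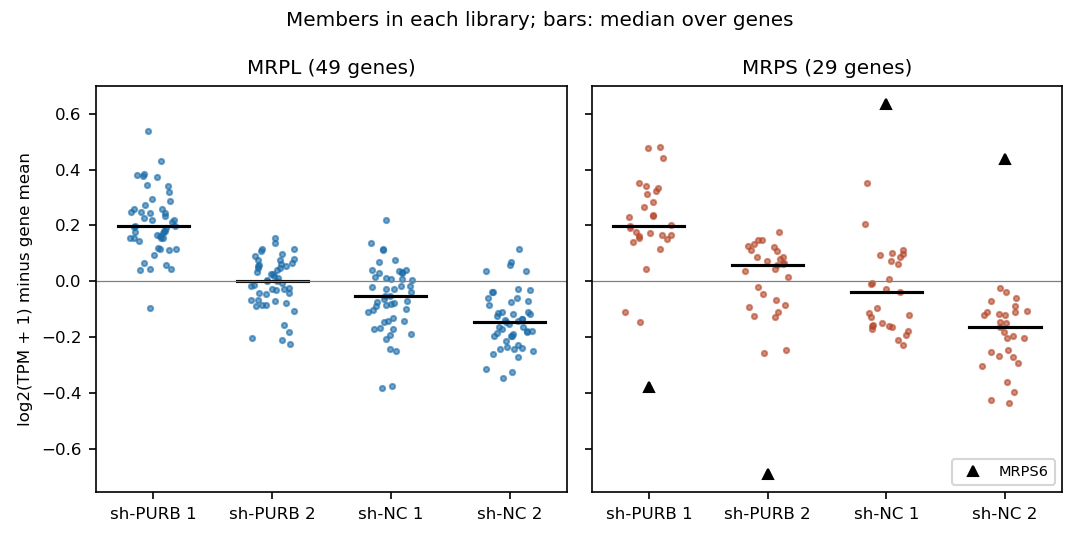
Centred level of each member in each library, log2(TPM + 1) minus the gene's mean over the 4 libraries, with sh-PURB libraries left of sh-NC libraries and a bar at the median over genes. The medians fall in the order sh-PURB 1, sh-PURB 2, sh-NC 1, sh-NC 2 in both panels, and MRPS6 (black triangles) runs the other way.

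Summed over the large subunit symbols, MRPL mRNAs made 1312 and 1120 TPM in the sh-PURB libraries, against 1088 and 1011 TPM in the sh-NC libraries. The ratio of group means was 1.16, and the groups did not overlap, although sh-PURB 2 and sh-NC 1 lay close together. MRPS mRNAs summed to 846 and 721 TPM in the sh-PURB libraries, against 723 and 641 TPM in the sh-NC libraries. That ratio was 1.15, and sh-PURB 2 lay just below sh-NC 1, so the groups overlapped. Without MRPS6 the MRPS sums were 816 and 696 TPM in the sh-PURB libraries, against 660 and 587 TPM in the sh-NC libraries, a ratio of 1.21 with no overlap. Scaled so that protein-coding genes have the same sum in each library, the MRPS sums with MRPS6 were 3418 and 2876 in sh-PURB, against 2858 and 2435 in sh-NC. These did not overlap either, although sh-PURB 2 and sh-NC 1 again lay close together. For small subunit genes sorted by their place in the particle, sums on that scale overlapped. They were 3187 and 2672.7 in sh-PURB, against 2673.1 and 2249 in sh-NC. The MRPL sum over the MRPS sum was 1.55 in both sh-PURB libraries, against 1.505 and 1.577 in the sh-NC libraries, whose range takes in the sh-PURB value. That overlap rests on MRPS6: without it the same quotient was 1.61 in both sh-PURB libraries, against 1.65 and 1.72 in the sh-NC libraries.

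Since TPM is a share, the larger share of structured RNAs in the sh-PURB libraries lowers all other values there. That share fell in the order sh-PURB 1, sh-PURB 2, sh-NC 1, sh-NC 2. The centred medians of the members fell in the same order, also within each group, and a link between them was not tested. With TPM recomputed after leaving out genes above 1% of a library and genes of the mitochondrial genome, the MRPL median was 0.34 and the MRPS median 0.37, and the median of all tested genes moved by 0.13 to 0.07. Relative to the median of all genes, the MRPL median was 0.25 higher with the deposited TPM and 0.27 higher with the recomputed TPM. Leaving out a library moved this relative value further, to 0.11 without sh-PURB 1 and 0.39 without sh-PURB 2. With the recomputed values the calls over all genes were 38 higher and 46 lower, in place of 12 and 29. With a trend in transcript length and GC content removed from each library, the MRPL median was 0.18 and the MRPS median 0.20.

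Among the small subunit proteins with the largest positive differences were 3 that have homologs in bacteria. MRPS15, a ribosomal RNA binding protein, had 39.3 and 30.98 TPM in the sh-PURB libraries, against 24.2 and 20.3 TPM in the sh-NC libraries. The groups did not overlap, and the difference of 0.63 ± 0.17 (SE, limma) had an adjusted p of 0.188. MRPS12, which lies near the decoding site where codon and anticodon pair, had 14.1 and 10.9 TPM in sh-PURB, against 8.36 and 7.24 TPM in sh-NC. MRPS7, a protein of the head of the small subunit, had 40.6 and 32.9 TPM in sh-PURB, against 26.3 and 21.8 TPM in sh-NC. Neither gene's groups overlapped, and the differences were 0.61 ± 0.17 for MRPS12 and 0.59 ± 0.16 for MRPS7 (limma adjusted p = 0.217 and 0.202).

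A smaller but tighter difference was found in MRPS16 and MRPS9, both also shared with bacteria. MRPS16 had 56.9 and 56.3 TPM in the sh-PURB libraries, against 44.03 and 43.3 TPM in the sh-NC libraries. Its libraries were nearly level within each group, its difference was 0.37 ± 0.09, and its adjusted p of 0.178 in limma was the lowest among the members that were higher in sh-PURB. MRPS9, whose bacterial homolog reaches the site that holds the peptidyl-tRNA, had 32.4 and 29.9 TPM in sh-PURB, against 24.4 and 23.6 TPM in sh-NC. Its groups stood apart with a difference of 0.36 ± 0.11 (limma adjusted p = 0.232).

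Among the large subunit proteins, MRPL41, which exists only in mitochondria, had 17.1 and 13.6 TPM in the sh-PURB libraries, against 9.31 and 11.0 TPM in the sh-NC libraries. MRPL24, a protein near the mouth of the exit tunnel in bacterial ribosomes, had 61.9 and 51.2 TPM in sh-PURB, against 41.3 and 37.8 TPM in sh-NC. MRPL19, a homolog of a bacterial protein at the contact between the subunits, had 21.2 and 20.1 TPM in sh-PURB, against 16.1 and 15.0 TPM in sh-NC. In each of the 3 genes both sh-PURB libraries exceeded both sh-NC libraries. The differences were 0.55 ± 0.17, 0.50 ± 0.13 and 0.39 ± 0.12, in the order named, with limma adjusted p-values of 0.244, 0.193 and 0.232.

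MRPL12 forms the flexible stalk that brings translation factors to the ribosome, and MRPL45 lies on the side that faces the inner membrane. MRPL12 had 16.6 and 13.9 TPM in the sh-PURB libraries, against 9.44 and 11.3 TPM in the sh-NC libraries. It shares 67.2% of its 31-base words, the stretches by which a transcript can be recognised, with an overlapping annotated gene (AC139530.2), so its TPM is uncertain. MRPL45 had 9.05 and 8.18 TPM in sh-PURB, against 6.78 and 6.58 TPM in sh-NC, and its pseudogenes held 33.8% of the TPM of gene and pseudogenes together. Neither gene's groups overlapped, and neither passed the threshold (limma adjusted p = 0.238 for MRPL12 and 0.356 for MRPL45).

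The genes of the MRPS18 family encode related proteins with different places in the particle. MRPS18B, a small subunit protein, had 31.6 and 26.3 TPM in the sh-PURB libraries, against 21.7 and 20.7 TPM in the sh-NC libraries, a difference of 0.43 ± 0.13 (limma adjusted p = 0.245) with no overlap. MRPS18C, also a small subunit protein, had 46.1 and 34.3 TPM in sh-PURB, against 40.5 and 31.4 TPM in sh-NC. MRPS18A, which sits in the large subunit despite its symbol, had 22.9 and 18.4 TPM in sh-PURB, against 20.0 and 19.6 TPM in sh-NC. For these other members of the family the groups overlapped, and each shares over 40% of its words with another gene, 42.7% for MRPS18C and 49.3% for MRPS18A, so reads could be split. Without sh-PURB 1 the differences were -0.05 for MRPS18C and -0.10 for MRPS18A.

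MRPS30 also belongs to the large subunit despite its symbol, and MRPS36 was later recognised as a part of the 2-oxoglutarate dehydrogenase complex rather than of the ribosome. MRPS30 had 23.2 and 21.8 TPM in the sh-PURB libraries, against 18.5 and 19.7 TPM in the sh-NC libraries. MRPS36 had 11.3 and 10.7 TPM in sh-PURB, against 8.38 and 9.79 TPM in sh-NC. Neither gene's groups overlapped, with differences of 0.23 ± 0.11 for MRPS30 and 0.25 ± 0.14 for MRPS36 (limma adjusted p = 0.417 and 0.466). Sorting members by their place in the particle rather than by symbol gave a median difference of 0.20 over 51 large subunit genes and 0.23 over 26 small subunit genes. The 46 members with a homolog in bacteria had a median of 0.20 and the 31 specific to mitochondria one of 0.21, so neither sorting set the medians apart. Of the related MRPS18 proteins, MRPS18C was counted among the 46, and MRPS18A and MRPS18B among the 31. Both sh-PURB libraries stood above both sh-NC libraries in 28 of the 46 (60.9%) and 15 of the 31 (48.4%). Over all tested genes, 18.6% had this order. Whether the 46 and the 31 differ in this was not tested.

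The size of the difference showed little relation to the level of a member. The mean over all libraries ran between 4.42 TPM for MRPL50 and 88.8 TPM for MRPS24, with a median of 20.2 TPM, and Spearman's rho between mean level and difference was 0.04 over the 78 genes. MRPS24, a homolog of the bacterial protein at the mRNA entry, had 110 and 92.5 TPM in the sh-PURB libraries, against 85.1 and 67.8 TPM in the sh-NC libraries. MRPL51, specific to mitochondria, followed with 101 and 81.8 TPM in sh-PURB, against 85.2 and 71.9 TPM in sh-NC. MRPL33, a small protein shared with bacteria, had 62.0 and 55.5 TPM in sh-PURB, against 53.8 and 44.1 TPM in sh-NC. MRPS24 and MRPL51 did not differ beyond their spread in either group, at means of 101 and 91.5 TPM in sh-PURB and of 76.5 and 78.5 TPM in sh-NC, while MRPL33 lay below both in each group.

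At the low end of the levels stood 3 proteins specific to mitochondria. MRPL50 had 5.01 and 4.65 TPM in the sh-PURB libraries, against 4.11 and 3.92 TPM in the sh-NC libraries, with no overlap. MRPL57 had 7.16 and 5.77 TPM in sh-PURB, against 6.44 and 5.20 TPM in sh-NC, and MRPS31 had 6.20 and 7.60 TPM in sh-PURB, against 7.51 and 6.63 TPM in sh-NC. Both of these overlapped between groups. The pseudogenes of MRPS31 held 37.4% of the TPM of gene and pseudogenes together, the highest share among the 36 members with pseudogenes in the table.

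Members were also sorted by the sequence they share with other genes. The 26 members that share under 5% of their words with any other gene had a median difference of 0.21, and the other 52 also had 0.21. Of the 26, 25 were above 0, and 17 (65.4%) had both sh-PURB libraries above both sh-NC libraries. Of the 52, 44 were above 0 and 27 (51.9%) had that order, so 8 of the 9 members below 0 were among those that share more. Among the 52, the share of words was 16.3% for MRPS12, 23.3% for MRPS16, 27.5% for MRPS24, 27.7% for MRPL51 and 42.3% for MRPL53. Their TPM may thus be uncertain as well.

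Apart from MRPS6, the members below 0 had small differences, and in all of them the groups overlapped. MRPL10, which anchors the stalk, had 18.8 and 15.4 TPM in the sh-PURB libraries, against 21.3 and 17.6 TPM in the sh-NC libraries, a difference of -0.18 ± 0.16 (limma adjusted p = 0.665). MRPL48, a mitochondria-specific protein, had 19.7 and 16.4 TPM in sh-PURB, against 21.1 and 19.7 TPM in sh-NC. MRPL36, a very small protein shared with bacteria, had 32.2 and 26.7 TPM in sh-PURB, against 31.5 and 33.6 TPM in sh-NC. Differences closer to 0 were found in MRPL53 (-0.05) and MRPS27 (-0.05), both mitochondria-specific. The sign of these 2 values turned under other scalings and with a library left out, and that of MRPL36 only with the recomputed TPM, which raised the median of all genes by 0.13.

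MRPS6, a small subunit protein with a homolog in bacteria, had the largest difference of all 78 members, in the lower direction. It had 30.5 and 24.5 TPM in the sh-PURB libraries, against 62.7 and 54.6 TPM in the sh-NC libraries. The groups lay far apart, at 27.5 ± 4.31 TPM in sh-PURB and 58.7 ± 5.69 TPM in sh-NC (SD, n = 2 each), a level 2.13 times as high in sh-NC. The difference was -1.07 ± 0.15, with an adjusted p of 0.0728 in limma. It passed the threshold when genes were kept at 5 TPM or more (adjusted p = 0.049), among protein-coding genes only (0.0157) and with the replicate number as a block (0.0463), all in limma. Those settings called 121, 415 and 118 genes in all, against 41 in the main run, and MRPS6 was called under no other alternative.

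MRPS6 lies on chromosome 21 between positions 34073224 and 34143034 on the plus strand (GRCh38, GENCODE v29), and its neighbour SLC5A3 starts inside it on the same strand. SLC5A3 encodes the sodium and myo-inositol cotransporter, which takes up inositol under osmotic stress, and was chosen for description after its values were seen. Of the 5 annotated MRPS6 transcripts, 2 begin 21 and 47 bases before SLC5A3, and their opening exon ends at position 34073745, exactly where that of SLC5A3 ends. SLC5A3 then continues to an exon of 11400 bases, while MRPS6 transcripts continue to exons beyond it, and 2 of them also have exons of 74 and 23 bases within it. The genes have 197 words of 31 bases in common, 4.56% of those of MRPS6 and 1.71% of those of SLC5A3.

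SLC5A3 had 17.9 and 16.2 TPM in the sh-PURB libraries, against 68.3 and 63.3 TPM in the sh-NC libraries. It fell by 1.89 on the log2(TPM + 1) scale (SE 0.11), passing the threshold in limma (adjusted p = 0.0374), and was one of the 29 genes called lower. SLC5A3 and MRPS6 were thus both lower in both sh-PURB libraries, SLC5A3 at 0.259 and MRPS6 at 0.469 times the sh-NC mean. The call of SLC5A3 was lost with a pseudocount of 0.1, without a filter, without the intensity trend and when either sh-PURB library was left out (limma adjusted p between 0.0533 and 0.185), while its difference stayed between -1.95 and -1.74 in every alternative run. How far reads of one gene were assigned to the other was not tested.

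**Figure D3:**
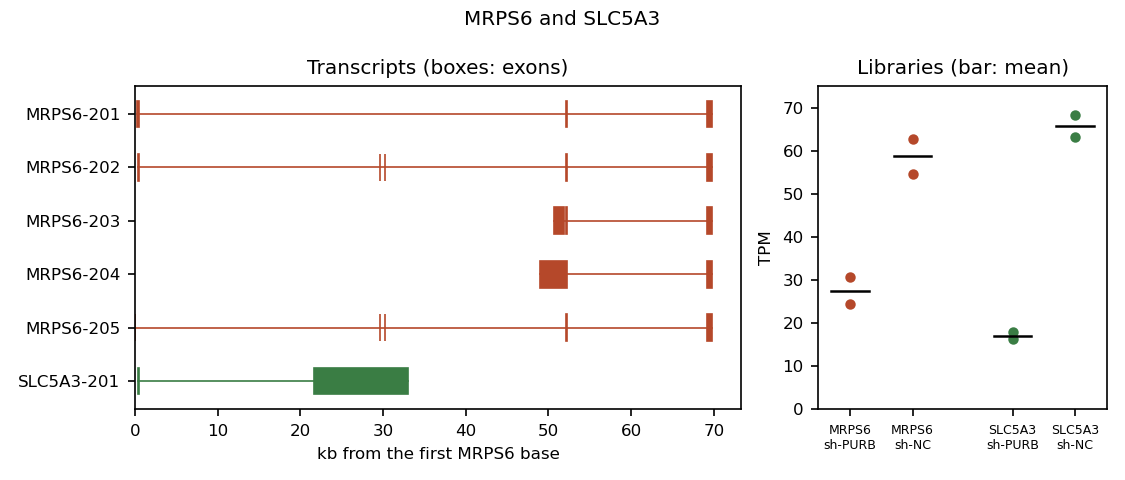
Left, the annotated transcripts of MRPS6 (orange) and SLC5A3 (green) by distance in kb from the beginning of MRPS6, with exons as boxes. Right, TPM of both genes in each library, sh-PURB left of sh-NC in each pair, with a bar at the mean of 2 libraries; both genes are lower in sh-PURB, SLC5A3 by more.

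Promoter windows, 250 bases before to 50 bases after the annotated start, were taken from RefSeq on GRCh38.p14 and were at hand for 69 of the 78 members. The RefSeq window of MRPS6 is the same as that of SLC5A3, which is why it is shown. The windows of MRPS15, the member with the largest positive difference, and of MRPS9, which holds matches to 3 of the 4 motifs searched, are shown beside it. Capitals mark motif matches on either strand, and matches of one motif may overlap.
MRPS6 and SLC5A3, chr21:34073328-34073627, plus strand: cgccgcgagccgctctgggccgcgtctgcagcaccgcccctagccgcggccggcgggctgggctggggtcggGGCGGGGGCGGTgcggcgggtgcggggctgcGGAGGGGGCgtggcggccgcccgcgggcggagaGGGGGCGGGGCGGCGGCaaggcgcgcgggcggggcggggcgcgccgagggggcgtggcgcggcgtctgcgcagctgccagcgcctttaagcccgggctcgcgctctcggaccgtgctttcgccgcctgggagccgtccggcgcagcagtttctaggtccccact
MRPS15, chr1:36464335-36464634, minus strand: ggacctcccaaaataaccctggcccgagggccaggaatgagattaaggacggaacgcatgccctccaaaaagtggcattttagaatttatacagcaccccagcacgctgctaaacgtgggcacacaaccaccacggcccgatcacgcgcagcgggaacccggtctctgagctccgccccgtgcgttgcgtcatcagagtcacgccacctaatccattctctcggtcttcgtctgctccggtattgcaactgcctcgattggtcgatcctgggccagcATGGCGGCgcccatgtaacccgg
MRPS9, chr2:105037819-105038118, plus strand: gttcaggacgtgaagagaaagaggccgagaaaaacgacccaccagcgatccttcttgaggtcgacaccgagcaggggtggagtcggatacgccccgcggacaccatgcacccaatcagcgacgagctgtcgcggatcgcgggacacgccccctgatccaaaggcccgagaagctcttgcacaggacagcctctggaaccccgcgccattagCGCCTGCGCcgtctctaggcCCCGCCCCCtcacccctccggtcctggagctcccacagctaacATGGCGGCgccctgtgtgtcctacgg

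The motifs were GCGCANGCG for NRF1 and CCGGAAGT for ETS factors such as GABP, which are known activators of nuclear genes for mitochondrial proteins, ATGGCGGC for YY1, and GGNGGNGGN for the purine-rich repeat that PUR proteins are known to bind. In the window of MRPS6 and SLC5A3 all capitals belong to 5 matches of the purine-rich repeat, some of them overlapping, which begin between 178 and 106 bases before the start. In that of MRPS15 the only match is that of YY1, 27 bases after the start. In that of MRPS9, the matches are those of NRF1, the purine-rich repeat and YY1, in that order along the strand. A match says only that these letters are in the window, and not that a factor binds there.

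Over the 69 members with a window, the YY1 letters were found in 27.5%, against 3.21% of all 27303 windows and 6.65% of the windows of tested protein-coding genes. There were 20 such matches, of which 17 lay on the sense strand 9 to 38 bases after the start, where the letters can also spell a start codon. NRF1 letters were in 18.8% of member windows, against 8.05% of all windows and 15.5% of those of tested protein-coding genes. ETS letters were in 15.9% of member windows, against 4.44% of all windows and 9.37% of those of tested protein-coding genes. The purine-rich repeat was in 65.2% of member windows, against 51.8% of all windows and 71.3% of those of tested protein-coding genes. Members with and without a motif had about the same median difference: 0.21 in the 45 with the purine-rich repeat and 0.21 in the 24 without, 0.23 in the 19 with the YY1 letters and 0.19 in the 50 without, and 0.21 in the 23 with NRF1 or ETS letters and 0.21 in the 46 without.

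A protein-coding gene starting within 1000 bases on the opposite strand was annotated for 29 members, 37.2%, against 17.9% of all tested protein-coding genes. Of these partners 24 were tested, 15 (62.5%) had a difference above 0, and 0 were called. Over all tested genes, 41.6% had a difference above 0 and 0.287% were called. Their median difference was 0.08, and members with a partner had a median of 0.20, against 0.23 in those without. MRPL46 and MRPS11 are each other's partner, with starts 34 bases apart. MRPL46 had 12.4 and 9.98 TPM in sh-PURB, against 9.66 and 9.43 TPM in sh-NC, and MRPS11 had 18.9 and 18.5 TPM in sh-PURB, against 19.2 and 16.8 TPM in sh-NC, so that only MRPL46 had its groups apart.

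Other genes of mitochondrial translation were described by lists drawn up by function, and no gene of any of these lists was called by limma in the main run. Over all tested genes, 0.287% were called and 41.6% had a difference above 0. The 5 mitoribosome subunits with other names all had differences above 0, with a median of 0.20 on the log2(TPM + 1) scale. GADD45GIP1, a large subunit protein that also binds GADD45 proteins, had 8.50 and 6.44 TPM in sh-PURB, against 5.70 and 4.37 TPM in sh-NC. PTCD3, a small subunit protein with RNA-binding pentatricopeptide repeats, had 46.5 and 46.3 TPM in sh-PURB, against 38.5 and 42.3 TPM in sh-NC. Both had their groups apart, while AURKAIP1, a small subunit protein, had 29.03 and 21.7 TPM in sh-PURB, against 21.98 and 19.8 TPM in sh-NC, with overlap.

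Of 26 assembly factors, which fold and modify the ribosomal RNAs or place proteins on them, 23 were above 0, with a median of 0.13. Both sh-PURB libraries stood above both sh-NC libraries in 12 (46.2%) and below them in 1 (3.85%). Over all tested genes, 18.6% and 29.3% had these orders. MALSU1, which keeps the large subunit from joining too early, had 31.9 and 27.4 TPM in sh-PURB, against 21.7 and 23.1 TPM in sh-NC. GTPBP10, a GTPase of large subunit maturation, had 13.5 and 12.1 TPM in sh-PURB, against 9.78 and 10.3 TPM in sh-NC. RPUSD4, a pseudouridine synthase, had 6.33 and 5.79 TPM in sh-PURB, against 4.71 and 4.44 TPM in sh-NC. All 3 had their groups apart, with limma adjusted p-values of 0.262, 0.339 and 0.362.

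Of 16 translation factors, 13 were above 0, with a median of 0.20. Both sh-PURB libraries stood above both sh-NC libraries in 10 (62.5%) and below them in 2 (12.5%), against 18.6% and 29.3% of all tested genes. TACO1, needed for translation of the cytochrome oxidase subunit I mRNA, had 8.39 and 8.15 TPM in sh-PURB, against 6.02 and 5.79 TPM in sh-NC. MTIF2, the initiation factor that brings the initiator tRNA, had 22.7 and 20.3 TPM in sh-PURB, against 16.1 and 16.9 TPM in sh-NC. SLIRP, which stabilises mitochondrial mRNAs, had 156 and 108 TPM in sh-PURB, against 88.5 and 91.2 TPM in sh-NC. In each of these the groups were apart, and SLIRP was uneven between its sh-PURB libraries.

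Of 20 genes for aminoacyl-tRNA synthesis in mitochondria 19 were tested, and 16 were above 0, with a median of 0.27. Both sh-PURB libraries stood above both sh-NC libraries in 12 (63.2%) and below them in 2 (10.5%), against 18.6% and 29.3% of all tested genes. YARS2, the tyrosyl-tRNA synthetase, had 12.01 and 10.4 TPM in sh-PURB, against 7.05 and 7.53 TPM in sh-NC. GATB, a subunit of the enzyme that makes glutaminyl-tRNA, had 7.84 and 5.75 TPM in sh-PURB, against 4.38 and 4.13 TPM in sh-NC. HARS2, the histidyl-tRNA synthetase, ran the other way with 4.24 and 3.11 TPM in sh-PURB, against 6.82 and 6.42 TPM in sh-NC. The groups were apart in all 3 genes, with limma adjusted p-values of 0.181, 0.273 and 0.179.

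Of 14 genes for mitochondrial transcription and its nuclear regulators, 7 were above 0 and 7 below, with a median of -0.01. MYC, a transcription factor that drives genes of ribosome and mitochondrial biogenesis in many cells, had 17.7 and 15.6 TPM in sh-PURB, against 8.35 and 8.30 TPM in sh-NC. Its difference was 0.92 ± 0.13, with an adjusted p of 0.0743 in limma and no overlap. It passed the threshold with genes kept at 5 TPM or more (limma adjusted p = 0.0472) and among protein-coding genes only (0.0157). Those settings called 121 and 415 genes in all, against 41 in the main run. POLRMT, the mitochondrial RNA polymerase, had 8.76 and 6.90 TPM in sh-PURB, against 6.38 and 5.26 TPM in sh-NC. YY1, a zinc finger transcription factor, had 15.2 and 16.7 TPM in sh-PURB, against 19.7 and 19.2 TPM in sh-NC, and stood apart in the lower direction.

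The cytosolic ribosomal proteins, nuclear-encoded as well, showed a smaller shift. Of 79 genes, 47 were above 0, with a median of 0.02, and their summed level was 49709 and 52208 TPM in the sh-PURB libraries, against 49419 and 51225 TPM in the sh-NC libraries. The sums overlapped, at a ratio of group means of 1.01. With protein-coding genes scaled to the same sum they were 200785 and 208257 in sh-PURB, against 195337 and 194498 in sh-NC, a ratio of 1.05 with no overlap, where the ratio of all mitochondrial members was 1.196. The sh-PURB pair stood wholly above the sh-NC pair in 27 of the 79 genes (34.2%) and wholly below it in 8 (10.1%). Over all tested genes these shares were 18.6% and 29.3%. FAU had 207 and 192 TPM in sh-PURB, against 161 and 157 TPM in sh-NC, and RPLP1 had 465 and 457 TPM in sh-PURB, against 379 and 393 TPM in sh-NC.

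The RNA partners of the proteins, MT-RNR1 and MT-RNR2, are the small and large subunit ribosomal RNAs of mitochondria, and removal of ribosomal RNA during library preparation may have taken an unknown part of them. MT-RNR1 had 50.2 and 69.0 TPM in sh-PURB, against 44.7 and 84.2 TPM in sh-NC, and MT-RNR2 had 187 and 255 TPM in sh-PURB, against 159 and 316 TPM in sh-NC. Both sh-PURB libraries lay between the sh-NC libraries for each RNA.

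**Figure D4:**
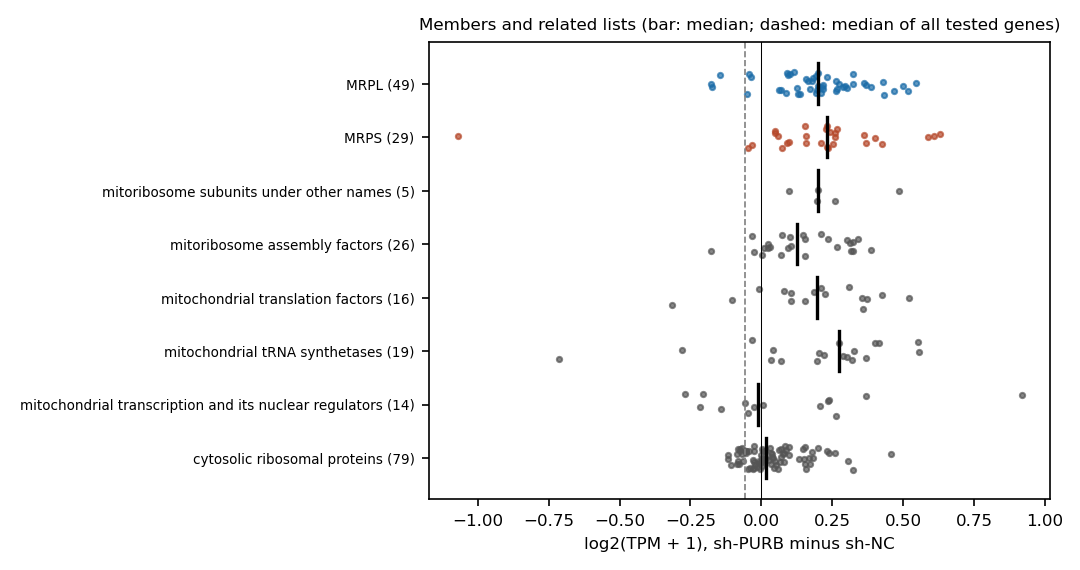
Difference on the log2(TPM + 1) scale, sh-PURB minus sh-NC, for the MRPL and MRPS genes and the related lists, with the number of tested genes in parentheses, a bar at each list's median and a dashed line at the median of all tested genes. Medians of the lists of mitochondrial translation lie between 0.13 and 0.27, and those of mitochondrial transcription and of cytosolic ribosomal proteins lie at -0.01 and 0.02.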

How the data were processed

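Per the labels' protocols, RNA was extracted with TRIzol and depleted of ribosomal RNA before Illumina TruSeq library construction. The authors deposited TPM per gene symbol, in single-library tables identical to a table of all 4 libraries. Per the submitters' processing notes, kallisto 0.44.0, bcl2fastq 2.19, DESeq2 and sleuth were used, with GRCm38 listed beside GRCh38 as a build and no role stated for either. The part played by the mouse build, the strand setting and the annotation release are not given in the sources used here. A row with a blank name, 0.921% to 1.66% of each library, was left out.

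Samples were grouped by title. Genes with at least 1 TPM in at least 2 libraries (14269) were compared as log2(TPM + 1) in limma 3.58.1 under R 4.3.3 with a trend in intensity, and p-values were adjusted by Benjamini-Hochberg over the whole table. The steps were tested on simulated data. A 31-base word is a stretch of an annotated transcript; sharing was counted over GENCODE v29 transcripts. Tables and figures were made with Python 3.11.15 and matplotlib 3.10.9.

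The members, gene lists and tests were chosen with earlier results of these data known. Named were PURB, MT-RNR1, MT-RNR2, the 6 members with the largest and the 6 with the smallest difference, the 8 with the smallest p, the 3 highest and 3 lowest by level, a set of members with a defined place or an unusual symbol, and the 3 of each related list with the smallest p. A gene that this rule names is not reported here, though it stays in all counts. SLC5A3, MRPL46 and MRPS11 were named after their values were seen. Alternatives were other pseudocounts, filters and scalings, protein-coding genes only, a replicate block, no intensity trend and each library left out. Removal of a length and GC trend (a spline with 4 degrees of freedom), and the count of members whose groups do not overlap with each library left out, and the MRPS sums without MRPS6, were added after seeing the data.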

Additional observations from a re-analysis of the deposited data

How the results depend on the processing

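The MRPL and MRPS medians stayed above 0 under every alternative run. The MRPL median was 0.34 with recomputed TPM, and the MRPS median 0.33 with median-ratio rescaling and 0.37 with recomputed TPM, scalings that raised the median of all genes by 0.13 (recomputed TPM) and 0.09 (median-ratio). With 1 library left out, the MRPL median ranged between 0.09 and 0.29 and the MRPS median between 0.16 and 0.32. Members with the sh-PURB values above the sh-NC values then numbered 45 without sh-PURB 1, 70 without sh-PURB 2, 64 without sh-NC 1 and 47 without sh-NC 2, where 33.2%, 28.6%, 27.0% and 32.4% of all tested genes had that order. No MRPL gene was called under any alternative, and 1 MRPS gene, MRPS6, was called with a filter at 5 TPM, among protein-coding genes only and with the replicate block. Of the 69 members above 0, 56 stayed above 0 under every alternative.

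The number of genes called over the whole table depended strongly on the setting. It was 0 with a pseudocount of 0.1, without a filter and without the intensity trend, 121 with a filter at 5 TPM, 84 with median-ratio rescaling, 84 with recomputed TPM, 415 among protein-coding genes only, 118 with the replicate block and 74 with the length and GC trend removed. With 1 library left out it ranged between 0 and 155, with a lone library assumed to vary like the other group. PURB passed the threshold among protein-coding genes only, with a difference of -0.91 (limma adjusted p = 0.0313). The labels do not say that a replicate number marks a shared culture, and the deviations of the libraries numbered 1 correlated at 0.19 over 14269 genes. The block changed no other call among the named genes. The cause of these shifts was not tested.

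Some differences of named genes changed sign. The scalings raise all genes, so values just below 0 turn there by construction. With median-ratio rescaling they were 0.057 for MRPL53, 0.057 for MRPS27, 0.061 for MRPS31, 0.048 for MT-RNR1 and 0.073 for MT-RNR2. With recomputed TPM they were 0.0034 for MRPL36, 0.098 for MRPL53, 0.098 for MRPS27 and 0.099 for MRPS31. Among protein-coding genes only they were 0.0017 for MRPS27 and 0.0099 for MRPS31, and with the length and GC trend removed 0.0090 for MRPL53. With 1 library left out, the differences ranged over -0.14 to 0.036 for MRPL53, -0.37 to 0.28 for MRPS27, -0.16 to 0.094 for MRPS31, -0.0042 to 0.26 for MRPL57, -0.10 to 0.20 for MRPS18A, -0.053 to 0.36 for MRPS18C, -0.51 to 0.39 for MT-RNR1 and -0.53 to 0.46 for MT-RNR2. TPM keeps no depth, so counting error could not be given for any value.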
